A study of Mus musculus with 60 samples.

Results

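The genes described here are 10 transcription factors associated with the quiescent, naive and memory states of T cells: Tcf7, Lef1, Myb, Bach2, Foxo1, Foxo3, Foxp1, Satb1, Bcl6 and Maf. They were taken by name from 55414 genes in the count table, of which 34269 had at least 1 read. All 10 had enough reads to be tested in each of the 21 comparisons made.

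The cells were naive CD8 T cells from spleens of NOD mice, an autoimmune-prone strain, with the OT-I transgene, whose T cell receptor recognises an ovalbumin peptide. They were either Sh2b3+/+ (wild type) or Sh2b3-/- (knockout). Sh2b3 encodes an adaptor protein that restrains cytokine receptor signalling. Each genotype was sampled unstimulated (0 h) in 11 libraries, and in 5 libraries each after 2, 6 and 24 h of stimulation with antibodies to CD3 (10 µg/mL, fixed to the plate) and CD28 (5 µg/mL, in solution). Another 4 libraries of each genotype came from 24 h cultures that also held an antibody blocking IL-2 (10 µg/mL). All 10 groups therefore share the NOD background and the OT-I receptor, and every stimulated group received both antibodies. The ages of the mice are not given in the sources used here. The labels do not say whether libraries of a group came from separate mice or separate cultures. The p-values therefore reflect variation among these libraries, which may be technical.

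TCF-1 (the product of Tcf7) and LEF-1 are related HMG-box proteins that share a DNA motif and maintain naive and memory T cell identity. FOXO1 and FOXO3 are forkhead proteins that phosphorylation through the PI3K and AKT pathway removes from the nucleus when the antigen receptor is engaged. In T cells FOXO1 drives genes of homing and survival, among them Il7r and Klf2. BACH2 and BCL6 are repressors that oppose effector differentiation, MYB supports memory precursors, SATB1 organises chromatin, FOXP1 holds naive T cells in quiescence, and MAF (c-Maf) acts in several differentiated T cell types.

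Library totals ran from 13987029 to 35476519 counts, with a median of 17994613. Library names fall into 4 runs of numbers, called sets A to D here, which the labels do not explain. Set A holds all libraries at 2 and 6 h and 5 of each genotype at 0 h. Sets B and C hold the other 0 h libraries and, at 24 h, 2 and 3 libraries of each genotype. Every library with anti-IL-2, and no other, is in set D, so the antibody and the set cannot be told apart. Levels below are CPM (counts scaled to a common library size by TMM), and called genes are those below 0.05 after Benjamini-Hochberg adjustment, over the whole table, of p-values from edgeR's quasi-likelihood test. Sh2b3 itself lay between 64.7 and 171 CPM in wild type libraries and between 7.57 and 31.4 CPM in knockout libraries. All 8 CD8 T cell markers examined were present, with Cd8a between 365 and 1585 CPM, while Cd4 did not pass 1.77 CPM and Foxp3 did not pass 3.90 CPM in any library. Other genes of the CD4 and regulatory T cell list were higher. At 24 h Ctla4 had means of 37.4 (wild type) and 38.3 CPM (knockout), and Izumo1r 34.6 and 36.8 CPM. Summed marker lists reached 92.5 CPM for B cells and 155 CPM for erythroid cells in single 24 h libraries. In wild type at 0 h the gamma delta T cell list had a median of 540 CPM. The NK cell list had 348 CPM there, mostly Nkg7 (mean 344 CPM).

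The sequences just upstream of the members were available from RefSeq for 9 of them, all but Maf, as 20 windows of 300 bases on the mouse build GRCm38.p6 (the counts were made on GRCm39). Each window runs from 250 bases before a transcription start to 50 bases after it. They were searched on both strands for motifs of the factors named above or of pathways acting on these cells: TGTTTAC (forkhead), CTTTGAT (TCF and LEF), TAACTG (MYB), TTCNNNGAA (STAT, which reads the same on both strands) and TGACTCA (AP-1). Of 32851 mouse windows of this length, 3.65% hold the forkhead motif, 3.73% the TCF and LEF motif, 10.1% the MYB motif, 8.3% the STAT motif and 5.2% the AP-1 motif. Of the 20 member windows, 5 held a match. The share of all windows that hold any of these motifs was not computed, so whether 5 of 20 is more than usual was not tested. Windows of other members that moved after stimulation, Foxo1, Lef1 and Satb1 among them, held no match. The 5 windows are shown 5′ to 3′ with the matched bases in capitals. The Bach2 window (chr4:32417185-32417484, plus strand) has 1 STAT match beginning 140 bases before the start. The 2 Bcl6 windows (chr16:23988803-23989102 and chr16:23981234-23981533, both minus strand) have 1 and 3 STAT matches. The Myb window (chr10:21160935-21161234, minus strand) and the Tcf7 window (chr11:52282546-52282845, minus strand) have 1 forkhead match each, on the reverse strand in Tcf7.
Bach2: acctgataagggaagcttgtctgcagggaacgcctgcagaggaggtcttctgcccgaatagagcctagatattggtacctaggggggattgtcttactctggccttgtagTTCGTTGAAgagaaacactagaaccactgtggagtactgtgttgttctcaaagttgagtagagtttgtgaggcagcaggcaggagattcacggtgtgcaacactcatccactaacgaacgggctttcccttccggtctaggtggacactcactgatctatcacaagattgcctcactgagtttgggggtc
Bcl6, first window: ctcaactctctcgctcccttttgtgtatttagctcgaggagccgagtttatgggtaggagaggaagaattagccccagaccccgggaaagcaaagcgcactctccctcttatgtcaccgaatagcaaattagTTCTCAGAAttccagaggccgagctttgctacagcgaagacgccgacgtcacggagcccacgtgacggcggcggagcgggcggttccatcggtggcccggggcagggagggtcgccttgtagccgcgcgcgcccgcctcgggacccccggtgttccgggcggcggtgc
Bcl6, second window: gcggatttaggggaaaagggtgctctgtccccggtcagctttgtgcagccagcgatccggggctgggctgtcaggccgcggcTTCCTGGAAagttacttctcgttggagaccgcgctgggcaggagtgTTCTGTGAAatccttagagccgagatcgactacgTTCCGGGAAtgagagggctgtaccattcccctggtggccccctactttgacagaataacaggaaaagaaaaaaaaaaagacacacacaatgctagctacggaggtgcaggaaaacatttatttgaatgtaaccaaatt
Myb: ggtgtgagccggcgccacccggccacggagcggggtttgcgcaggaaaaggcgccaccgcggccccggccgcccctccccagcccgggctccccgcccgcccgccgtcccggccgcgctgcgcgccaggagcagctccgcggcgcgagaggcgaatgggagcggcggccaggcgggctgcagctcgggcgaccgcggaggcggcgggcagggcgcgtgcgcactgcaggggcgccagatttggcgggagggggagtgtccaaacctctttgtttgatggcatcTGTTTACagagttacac
Tcf7: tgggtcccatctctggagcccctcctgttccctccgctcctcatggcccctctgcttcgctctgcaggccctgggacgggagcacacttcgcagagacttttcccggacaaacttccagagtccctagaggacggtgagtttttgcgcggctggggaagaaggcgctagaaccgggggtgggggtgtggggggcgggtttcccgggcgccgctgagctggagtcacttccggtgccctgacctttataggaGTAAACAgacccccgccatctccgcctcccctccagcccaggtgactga
A match describes letters only. Whether any match bears on the changes given below was not tested.

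Divided by exon length, the members spanned a wide range in resting wild type cells. Tcf7 stood at 781 ± 43.9 RPKM (CPM per kilobase of exon, SD, n = 11), far above the next, Lef1, at 69.5 ± 10.3 RPKM. Satb1 (46.7 ± 3.26 RPKM) and Foxo1 (46.0 ± 5.30 RPKM) did not differ beyond their spread. Foxp1 (25.1 ± 2.20), Foxo3 (15.9 ± 1.84) and Bach2 (11.7 ± 1.17) followed. Myb (5.24 ± 0.494), Bcl6 (2.31 ± 0.464) and Maf (0.764 ± 0.203) were the lowest. At 24 h of stimulation the wild type order had shifted. Tcf7 was at 366 ± 135 RPKM (SD, n = 5), with a spread that did not reach that of Lef1 at 51.6 ± 28.0. Foxp1 at 35.0 ± 6.13 and Bach2 at 27.2 ± 4.59 stood above Satb1 at 23.6 ± 6.48 and Foxo1 at 20.7 ± 4.98. From Lef1 down to Foxo1 in this order, the spreads of neighbours overlapped.

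**Figure D1:**
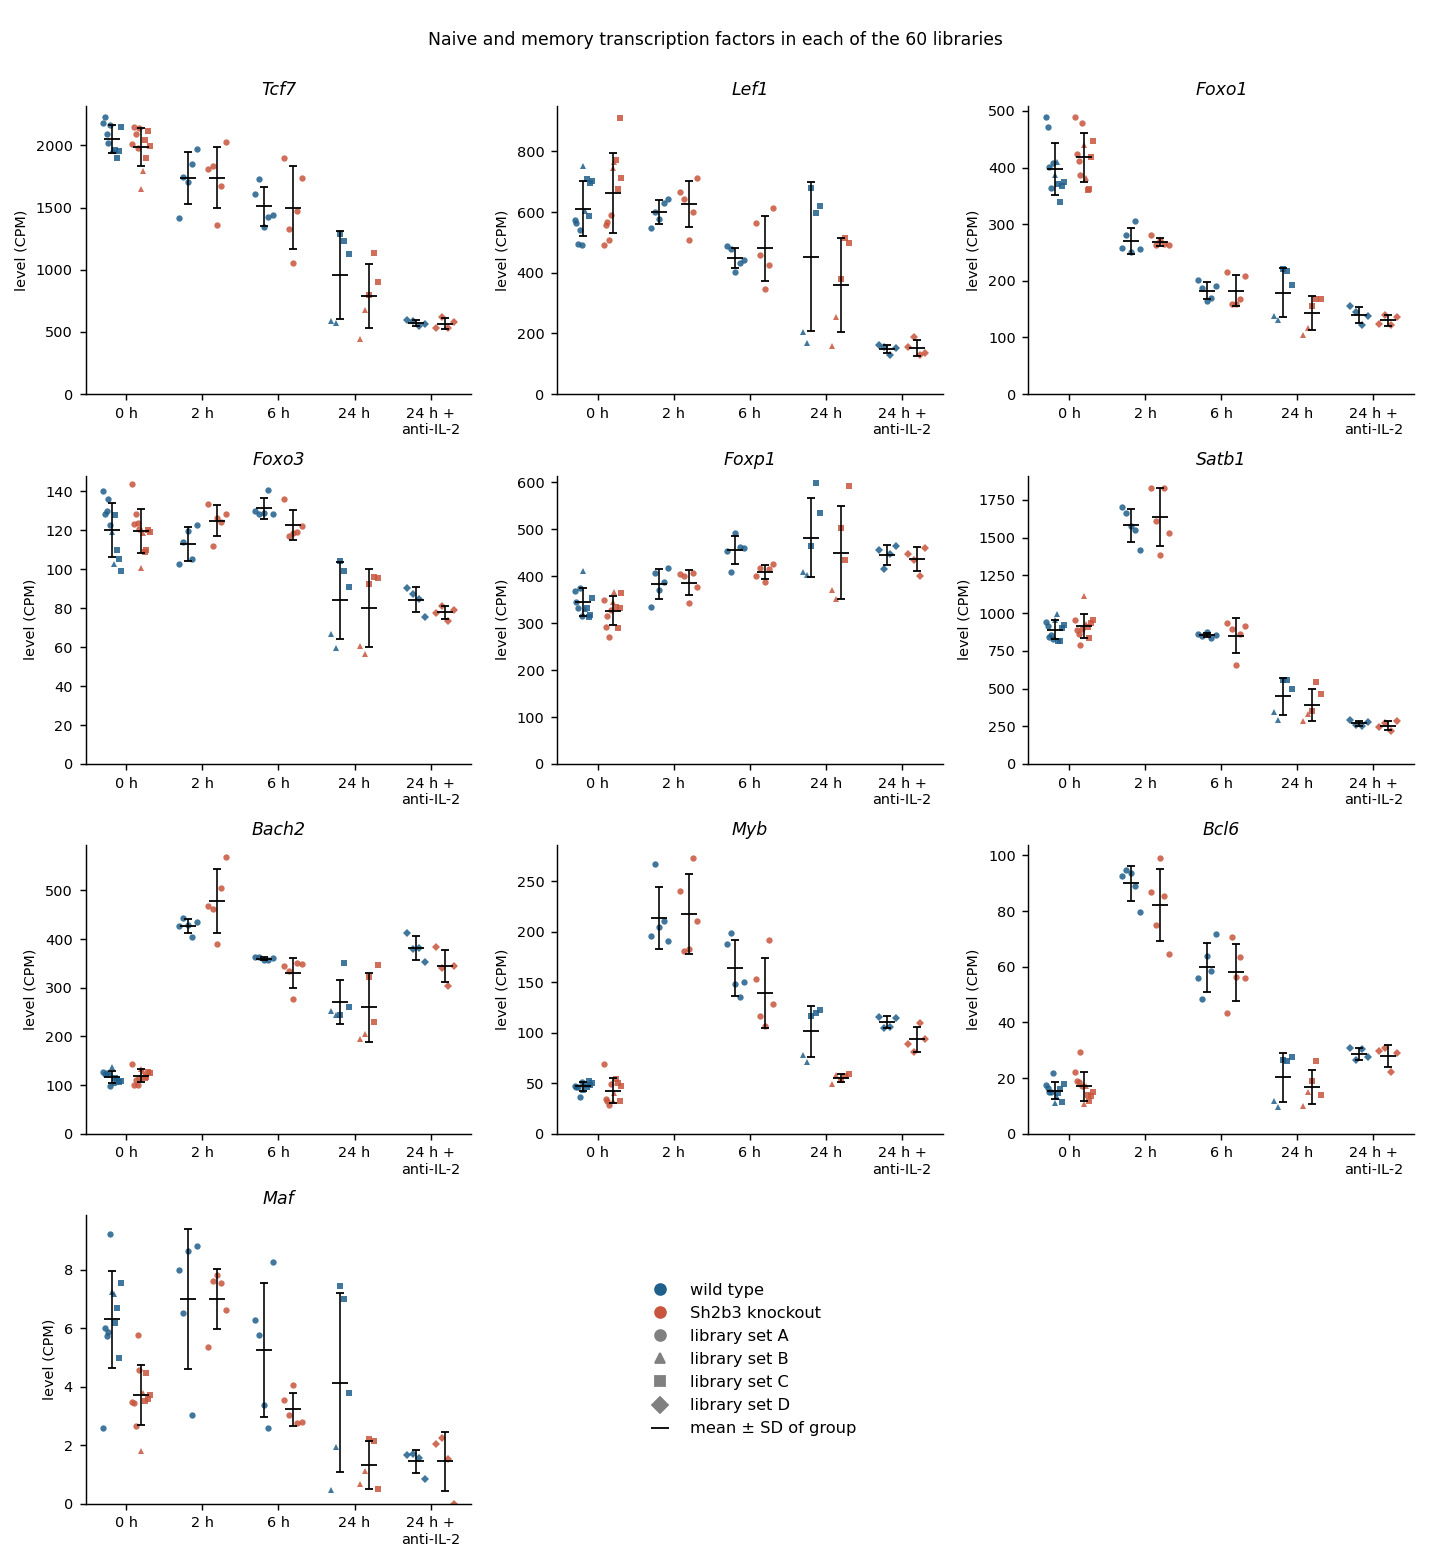
Level of each of the 10 genes in CPM (y axis) in every library, by genotype and group (x axis), with the library set as the marker shape and the mean ± SD of each group. Tcf7 and Foxo1 lie lower at every time after stimulation than at 0 h, and Myb, Bach2 and Bcl6 peak at 2 h. At 24 h the libraries of sets B and C lie apart for Tcf7, Lef1, Foxo1, Foxo3, Foxp1 and Satb1 in both genotypes. They also lie apart for Myb, Bcl6 and Maf in wild type and for Bach2 in knockout cells.

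Stimulation moved most of the members, as it moved most genes. In wild type at 2 h, 7 of 10 members were called against 0 h (4 higher, 3 lower), where 63.6% of all genes tested were called (30.3% higher, 33.3% lower). The counts were 7 at 6 h (4 higher, 3 lower; background 56.7%, 28.5% higher and 28.2% lower) and 9 at 24 h (4 higher, 5 lower; background 59.3%, 29.2% higher and 30.1% lower). In knockout cells they were 8 at 2 h (6 higher, 2 lower; background 57.6%, 28.4% higher and 29.2% lower), 6 at 6 h (4 higher, 2 lower; background 46.3%, 23.2% higher and 23.1% lower) and 9 at 24 h (3 higher, 6 lower; background 60.8%, 30.5% higher and 30.3% lower). These shares lay near the background or somewhat above it. The 3 comparisons of a genotype with 0 h share their 0 h libraries. Those at 2 and 6 h rest on the 0 h libraries of set A, because the fit includes the library set. These are bulk samples, in which fewer cells of a type and less RNA per cell cannot be told apart.

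Tcf7 (ENSMUSG00000000782) fell in steps. At 0 h it ran from 1900 to 2229 CPM with a median of 2015 in wild type. The 2 h libraries had 1417, 1745, 1702, 1849 and 1970 CPM, and the 6 h libraries 1605, 1732, 1344, 1422 and 1441 CPM. The 24 h libraries had 1290, 1227, 1124, 588 and 569 CPM, the last 2 of them being set B. Every wild type library at 6 h and at 24 h lay below every 0 h library, while at 2 h the ranges overlapped. The log2 change from 0 h was -0.31 ± 0.07 (SE; adjusted p = 0.00041) at 2 h, -0.46 ± 0.06 (adjusted p = 2.8e-07) at 6 h and -1.04 ± 0.12 (adjusted p = 2.5e-07) at 24 h, a 2.06-fold fall. In knockout cells the changes were -0.24 ± 0.09 (adjusted p = 0.021), -0.44 ± 0.12 (adjusted p = 0.0044) and -1.21 ± 0.11 (adjusted p = 9.9e-09). The knockout call at 2 h depended on replicate 3, the lowest of its group at 1360 CPM. Without that library the change was -0.17, adjusted p = 0.071. Without the doubted knockout libraries, named below, it was -0.18, adjusted p = 0.076. At 24 h the fall was -1.68 within set B and -0.69 within set C in wild type, called in both.

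Lef1 (ENSMUSG00000027985) changed less evenly than its relative. In wild type it ran from 493 to 754 CPM at 0 h (median 587), from 549 to 644 at 2 h and from 403 to 488 at 6 h. The 6 h libraries lay below all 0 h libraries, and Lef1 fell by 0.21 ± 0.07 on the log2 scale at 6 h (adjusted p = 0.014). The change at 2 h was 0.16 ± 0.07 (adjusted p = 0.054), close to the threshold, and DESeq2 called it higher (0.18, adjusted p = 0.024), as it did in knockout cells (0.22, adjusted p = 0.036, against 0.058 by edgeR). Without the doubted knockout libraries edgeR called the knockout change too (0.26, adjusted p = 0.02). At 24 h the sets parted. The 3 libraries of set C stood at 678, 596 and 621 CPM, within the range at 0 h, and the 2 of set B at 204 and 169 CPM. Fitted over both sets the 24 h change was -0.67 ± 0.23 (adjusted p = 0.023). Within set B it was -1.78 ± 0.12 (adjusted p = 4.1e-08), and within set C it was -0.06 ± 0.09 (adjusted p = 0.59), so the wild type call rests on 2 libraries, and leaving out either of them ended it (-0.50, adjusted p = 0.084, without replicate 4; -0.45, adjusted p = 0.075, without replicate 5). In knockout cells Lef1 fell in both sets at 24 h, by 1.77 ± 0.23 in set B (adjusted p = 0.00024) and by 0.68 ± 0.14 in set C (adjusted p = 0.00085), and by 1.06 ± 0.17 (adjusted p = 2.8e-05) over both.

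Foxo1 (ENSMUSG00000044167) fell early and stayed low. In wild type it ran from 339 to 489 CPM at 0 h (median 386). It was at 257, 282, 251, 305 and 257 CPM at 2 h, at 202, 187, 164, 170 and 192 CPM at 6 h, and at 220, 217, 192, 137 and 130 CPM at 24 h. No library after stimulation reached the lowest 0 h library. At 24 h the wild type mean was 134 CPM in set B and 210 CPM in set C. The log2 changes were -0.67 ± 0.07 (adjusted p = 2.9e-09), -1.18 ± 0.07 (adjusted p = 2.1e-14) and -1.03 ± 0.11 (adjusted p = 4.4e-08), which at 6 h is a 2.26-fold fall. Knockout cells showed -0.70 ± 0.08 (adjusted p = 2.4e-07), -1.24 ± 0.11 (adjusted p = 4.3e-08) and -1.42 ± 0.11 (adjusted p = 5.6e-10). The knockout groups did not overlap the knockout cells at 0 h either.

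Foxo3 (ENSMUSG00000048756) moved little. In wild type it had a median of 122 CPM at 0 h (99.0 to 140) and 129 CPM at 6 h (128 to 141). At 24 h the values were 104, 99.2 and 90.6 CPM in set C and 67.0 and 59.6 CPM in set B. It fell by 0.36 ± 0.10 on the log2 scale in wild type (adjusted p = 0.0036) and by 0.42 ± 0.10 in knockout cells at 24 h (adjusted p = 0.00097). Set C alone gave -0.14 (adjusted p = 0.27) in wild type and -0.22 (adjusted p = 0.065) in knockout cells, so both calls rest on set B. At 2 h Foxo3 was called lower in wild type (-0.23 ± 0.07, adjusted p = 0.007; -0.12, adjusted p = 0.17, without the set term), and the knockout value was -0.03 ± 0.07 (adjusted p = 0.75). The difference between these changes, 0.15 ± 0.09, was not called (adjusted p = 0.54).

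Satb1 (ENSMUSG00000023927) rose and then fell below its starting level. In wild type it ran from 813 to 993 CPM at 0 h (median 903). It stood at 1702, 1661, 1575, 1553 and 1415 CPM at 2 h, at 860, 851, 872, 833 and 855 CPM at 6 h, and at 557, 553, 500, 343 and 293 CPM at 24 h. All 2 h libraries lay above and all 24 h libraries below the 0 h range, and the 6 h libraries lay inside it. At 24 h the wild type mean was 318 CPM in set B and 537 CPM in set C. The log2 change was 0.84 ± 0.07 at 2 h (adjusted p = 2.7e-12), 0.01 ± 0.06 at 6 h (adjusted p = 0.91) and -0.98 ± 0.12 at 24 h (adjusted p = 2.3e-07). The knockout values were 0.90 ± 0.09 (adjusted p = 1.3e-08), -0.02 ± 0.10 (adjusted p = 0.91) and -1.20 ± 0.12 (adjusted p = 4.1e-08). The fall between 2 and 6 h was -0.85 ± 0.07 in wild type (adjusted p = 1.7e-09) and -0.88 ± 0.11 in knockout cells (adjusted p = 0.00024).

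Myb, Bach2 and Bcl6 rose within 2 h and then declined. Myb (ENSMUSG00000019982) ran from 35.9 to 52.0 CPM in resting wild type cells (median 47.7), reached 196, 267, 204, 210 and 191 CPM at 2 h, and then declined. The 6 h libraries had 188, 198, 148, 135 and 151 CPM, and the 24 h libraries 117, 119, 122, 77.5 and 70.8 CPM. Every stimulated wild type library was above every resting one. Its log2 changes from 0 h were 2.22 ± 0.09 (adjusted p = 3.3e-19), 1.90 ± 0.10 (adjusted p = 4e-16) and 1.12 ± 0.10 (adjusted p = 2.7e-09), a 4.67-fold rise at 2 h. The knockout changes were 2.36 ± 0.24 (adjusted p = 1.3e-06), 1.74 ± 0.24 (adjusted p = 2e-05) and 0.48 ± 0.19 (adjusted p = 0.037). Within sets the 24 h value was 0.67 in B (adjusted p = 0.017) and 0.35 in C (adjusted p = 0.076). The last call did not hold when any single knockout library at 24 h was left out, with values from 0.40 to 0.49 and adjusted p from 0.058 to 0.10.

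Bach2 (ENSMUSG00000040270) ran from 98.5 to 136 CPM at 0 h in wild type (median 115). It was at 426, 442, 428, 405 and 434 CPM at 2 h, at 363, 363, 356, 356 and 360 CPM at 6 h, and at 244, 351, 260, 252 and 244 CPM at 24 h. All stimulated libraries lay above the 0 h range, and the 6 h libraries were unusually close to each other, with an SD of 3.47 CPM. The log2 rise was 1.83 ± 0.07 (adjusted p = 2.5e-19), 1.63 ± 0.07 (adjusted p = 9.6e-18) and 1.30 ± 0.10 (adjusted p = 2e-10). Knockout cells gave 2.08 ± 0.11 (adjusted p = 5.1e-13), 1.57 ± 0.10 (adjusted p = 1.2e-09) and 1.14 ± 0.13 (adjusted p = 1.3e-07).

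Bcl6 (ENSMUSG00000022508) had the largest fold rise of the members in wild type. It ran from 11.2 to 22 CPM at 0 h (median 15.2), and stood at 92.5, 94.9, 93.5, 89.1 and 79.6 CPM at 2 h and at 56.1, 48.5, 63.9, 58.5 and 71.7 CPM at 6 h, with no overlap with 0 h. The log2 rise was 2.38 ± 0.11 at 2 h (5.20-fold, adjusted p = 1.4e-17) and 1.84 ± 0.13 at 6 h (adjusted p = 2.8e-13). In knockout cells it was 1.96 ± 0.15 (adjusted p = 9e-10) and 1.48 ± 0.17 (adjusted p = 8.3e-07). At 24 h the wild type sets parted again, with 26.4, 26.3 and 27.6 CPM in set C and 11.8 and 9.59 CPM in set B. The 24 h change of 0.52 ± 0.17 (adjusted p = 0.013) over both sets was 0.86 ± 0.17 (adjusted p = 0.00083) in set C and -0.11 ± 0.26 (adjusted p = 0.74) in set B. The knockout change at 24 h, 0.37 ± 0.20, was not called (adjusted p = 0.12). Set C alone gave 0.60 (adjusted p = 0.029) and set B -0.07, and leaving out 1 library gave 0.17 to 0.48, called without replicate 4 (adjusted p = 0.041).

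Foxp1 (ENSMUSG00000030067) was called higher, and never lower, in the comparisons with 0 h. In wild type it had a median of 332 CPM at 0 h (314 to 412), 388 CPM at 2 h (335 to 418), 460 CPM at 6 h (408 to 493) and 465 CPM at 24 h (403 to 598), with ranges that overlapped. It rose by 0.44 ± 0.07 at 6 h (adjusted p = 2.3e-06) and by 0.53 ± 0.09 at 24 h (adjusted p = 4.5e-05) in wild type, and in knockout cells by 0.32 ± 0.08 at 2 h (adjusted p = 0.0023), 0.42 ± 0.09 at 6 h (adjusted p = 0.00053) and 0.49 ± 0.11 at 24 h (adjusted p = 0.00066). The 24 h value was 0.72 in set C and 0.21 (adjusted p = 0.13) in set B in wild type, and 0.68 in set C and 0.13 (adjusted p = 0.52) in set B in knockout cells. So the calls at 24 h rest on set C.

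Maf (ENSMUSG00000055435) stayed under 10 CPM in all 60 libraries, and counts per library were low, so its errors are the largest of the 10. In wild type its median was 6.19 CPM at 0 h (2.60 to 9.21), 7.99 at 2 h (3.03 to 8.79), 5.77 at 6 h (2.57 to 8.26) and 3.80 at 24 h (0.468 to 7.45), and edgeR called none of the changes from 0 h. The wild type change at 24 h, -0.83 ± 0.41 (adjusted p = 0.089), was called by DESeq2 (-0.87, adjusted p = 0.048), within set B (-2.44, adjusted p = 0.0026) and without replicate 1 (-1.06, adjusted p = 0.037), was -0.04 within set C, and ran from -0.46 to -1.06 leaving out 1 library. In knockout cells the medians were 3.56, 7.55, 3.03 and 1.10 CPM. Maf was called higher at 2 h (0.82 ± 0.24, adjusted p = 0.0069) and lower at 24 h (-1.29 ± 0.37, adjusted p = 0.0052) in knockout cells. Neither set alone gave the 24 h call, at -1.55 (adjusted p = 0.11) in B and -1.16 (adjusted p = 0.069) in C. It fell between 2 and 6 h by 1.05 ± 0.19 (adjusted p = 0.0016), with no overlap between those groups.

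**Figure D2:**
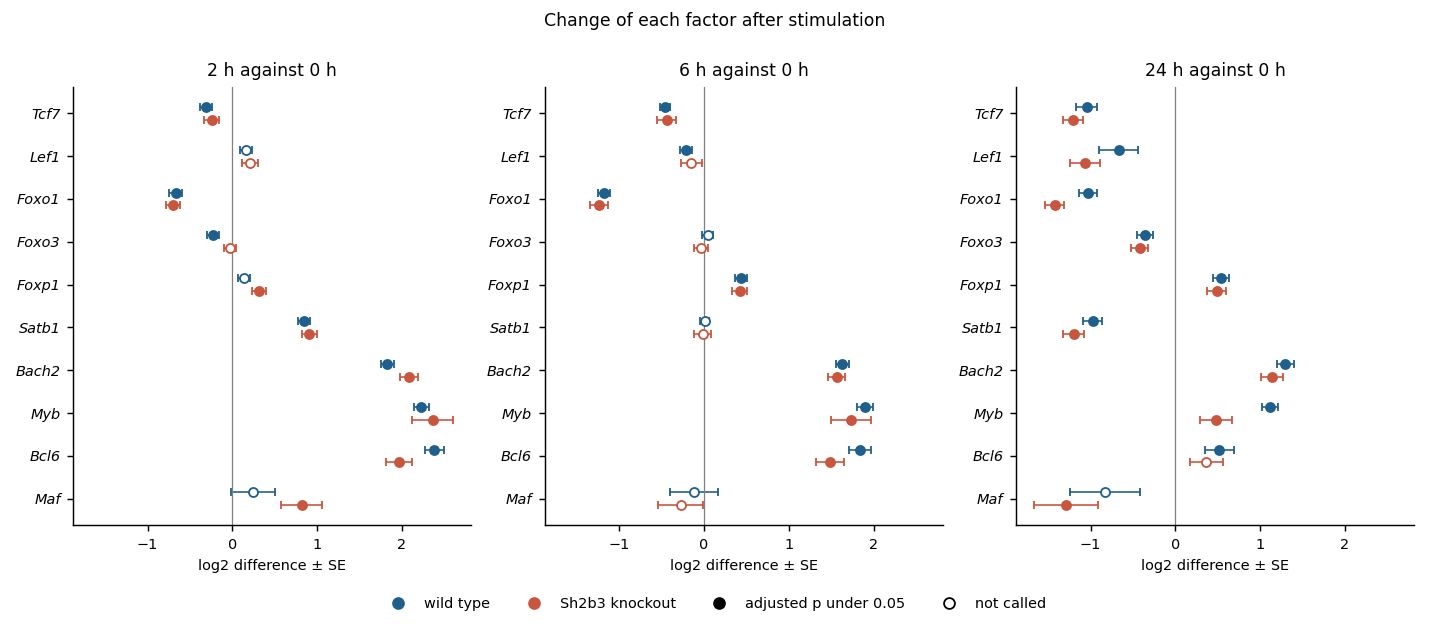
Log2 change from 0 h (x axis, ± SE) for each gene (y axis) in wild type and knockout cells, in 1 panel each for 2, 6 and 24 h, with filled symbols where the adjusted p is under 0.05. Myb, Bach2 and Bcl6 lie highest at 2 h, Satb1 crosses from above to below 0, and Tcf7 and Foxo1 lie below 0 throughout.

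Between 2 and 6 h, 8 of 10 members were called in wild type (2 higher, 6 lower), where 47.2% of genes were called (23.6% higher, 23.7% lower), and 6 in knockout cells (all lower), where 34.2% were called (18.1% higher, 16.1% lower). Myb, Bach2, Foxo1, Satb1 and Bcl6 fell in both genotypes. The knockout call of Bcl6 was lost in 4 of 10 fits that left out 1 library (adjusted p up to 0.077) and that of Myb in 1 (0.055). Without the doubted knockout libraries the Bcl6 change was -0.35 (adjusted p = 0.096). With the paired knockout libraries as a block, Lef1 also fell there, by 0.34 ± 0.07 (adjusted p = 0.0022), against -0.32 ± 0.15 (adjusted p = 0.12) without it. Foxo3 (0.26 ± 0.07, adjusted p = 0.0038) and Foxp1 (0.29 ± 0.07, adjusted p = 0.0022) were the 2 that rose in wild type. Between 6 and 24 h, no library set holds both times, and the comparison was bridged through the 0 h libraries of each set. There, 5 of 10 members were called lower in wild type (background 30.7%, 14.9% lower and 15.8% higher) and 6 in knockout cells (background 31.3%, 15.1% lower and 16.3% higher). Bcl6 (-1.32 ± 0.23, adjusted p = 6.3e-05 in wild type) and Satb1 (-0.98 ± 0.16, adjusted p = 2.3e-05) moved most in wild type.

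Wild type and knockout cells were then compared within each group. At 0 h, 1 of 10 members was called, Maf, where 0.633% of genes were called (0.328% higher, 0.305% lower). The other 9 lay between -0.14 ± 0.13 (Myb) and 0.12 ± 0.11 (Bcl6) on the log2 scale, and their ranges overlapped between genotypes. Tcf7, at a median of 2015 CPM in wild type and 2007 CPM in knockout cells, differed by -0.05 ± 0.04, and Foxo1, at 386 and 419 CPM, by 0.07 ± 0.05.

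Maf ran from 2.60 to 9.21 CPM with a median of 6.19 in resting wild type cells, and from 1.81 to 5.75 CPM with a median of 3.56 in resting knockout cells. Most wild type libraries lay above most knockout libraries, but the ranges overlapped. Wild type replicate 1 was low at 2.60 CPM and replicate 4 was at 5.00 CPM, while knockout replicate 10 was high at 5.75 CPM. Maf was lower in knockout cells by 0.78 ± 0.18 on the log2 scale (adjusted p = 0.034), a 1.71-fold difference. The direction was the same in each library set, at -0.55 in A, -1.37 in B and -0.75 in C, none of them called alone (adjusted p from 0.12 to 0.97), and without the set term the adjusted p was 0.073. Markers of gamma delta T cells, a cell type in which c-Maf acts, moved the same way. Of the 9 in the table, Blk was called lower in knockout cells (3.44 and 1.90 CPM, adjusted p = 0.048), and the summed level ran from 446 to 851 CPM in wild type and from 274 to 733 CPM in knockout cells. Their part in the Maf difference was not tested. The knockout library with the highest Maf, replicate 10, was doubted in an earlier analysis of these data. Without that library the difference was -0.87 (adjusted p = 0.0055). Taking out the highest knockout value could only widen the difference, so this fit is no check of the call. Knockout replicate 3 at 2 h and knockout replicate 3 at 6 h were doubted as well.

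After 2 and 6 h of stimulation no member differed between genotypes by edgeR. At 2 h no member had an unadjusted p under 0.05 and DESeq2 called none (background called 0.0647%, 0.0323% in each direction). At 6 h, 2 members (Foxp1 and Maf) had an unadjusted p under 0.05 and DESeq2 called none (background called 0.0306%, 0.0153% in each direction). Among all genes tested, 1623 of 12372 at 2 h and 743 of 13082 at 6 h had an unadjusted p under 0.05. Standard errors of the differences at 2 h were between 0.07 and 0.12 apart from Maf at 0.24. At 2 h Maf had a mean of 6.99 CPM in wild type and 7 CPM in knockout cells (0.00 ± 0.24), and at 6 h the difference was -0.72 ± 0.30 (adjusted p = 0.85). Bach2 at 6 h stood at 356 to 363 CPM in wild type and 278 to 350 CPM in knockout cells, which did not overlap, yet the difference of -0.14 ± 0.08 was not called (adjusted p = 0.92).

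At 24 h, 1 of 10 members was called, Myb, where 0.372% of genes were called (0.225% higher, 0.147% lower). Myb was at 117, 119, 122, 77.5 and 70.8 CPM in wild type and at 53.7, 57.5, 58.8, 49.1 and 58.4 CPM in knockout cells. The groups did not overlap, and the knockout libraries were close together. Myb was lower in knockout cells by 0.84 ± 0.12 (1.79-fold, adjusted p = 0.0076). Within set C the difference was -1.08 ± 0.13 (adjusted p = 0.00078), and within set B -0.46 ± 0.14 (adjusted p = 0.69, 2 libraries a group). Without the set term it was -0.88 with an adjusted p of 0.16.

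Foxo1 missed the threshold but was lower in knockout cells within both sets at 24 h. In set C it was at 220, 217 and 192 CPM in wild type and 155, 168 and 169 CPM in knockout cells, and in set B at 137 and 130 against 104 and 118 CPM. Neither set overlapped between genotypes, while the pooled groups did. The difference was -0.33 ± 0.08 (adjusted p = 0.12 by edgeR and 0.016 by DESeq2). The members' median difference at 24 h was -0.20, beside 0.00 over all genes, and the sign varied between sets for Lef1 (0.15 in B), Bcl6 (0.22 in B) and Bach2 (0.07 in C), none of them called. For Maf the difference was -1.37 ± 0.55 (adjusted p = 0.34).

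Genes listed as markers of gamma delta T cells and of memory-phenotype CD8 T cells moved in the same comparison. Over all genes 0.225% were called higher and 0.147% lower there. Which cells held these transcripts was not tested. The gamma delta T cell list summed to 233 to 334 CPM in wild type and 104 to 206 CPM in knockout cells at 24 h, without overlap, with 2 of 7 tested members called lower, Trdc (221 and 120 CPM) and Tcrg-C4 (23.2 and 10.4 CPM). A list of memory-phenotype CD8 T cell genes had 2 of 10 called higher in knockout cells. Whether either bears on Myb was not tested. With anti-IL-2 at 24 h no member was called by edgeR or DESeq2 (background 0.35%, 0.201% higher and 0.149% lower). There 2 members, Myb and Bach2, had an unadjusted p under 0.05, as did 1274 of all 13441 genes tested. Myb was then at 116, 104, 106 and 115 CPM in wild type and 89.0, 81.2, 110 and 93.8 CPM in knockout cells, which overlapped, with a difference of -0.24 ± 0.09 (adjusted p = 0.36).

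**Figure D3:**
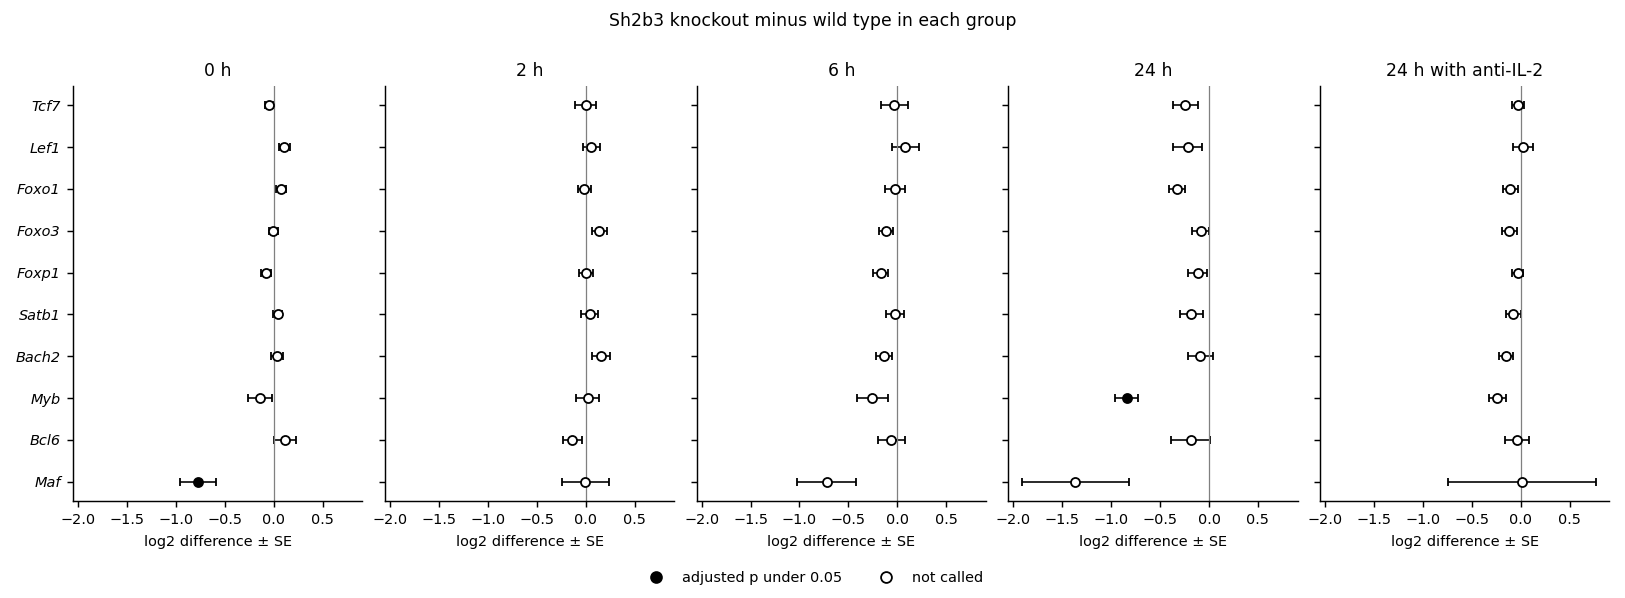
Log2 difference of knockout minus wild type (x axis, ± SE) for each gene (y axis), in 1 panel for each of the 5 pairs of groups, with filled symbols where the adjusted p is under 0.05. Maf at 0 h and Myb at 24 h are filled, and all other values are open.

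The difference between genotypes in each change was also tested. The edgeR interaction terms called 0 members for 0 to 2 h, 0 to 6 h, 0 to 24 h and for anti-IL-2, and DESeq2 also called 0. Over all genes 0%, 0%, 0.113% and 0% were called. Members with an unadjusted p under 0.05 numbered 1, 0, 2 and 1. Among all genes tested, 1617 of 14560, 975 of 14892, 1796 of 15037 and 650 of 14778 had one. The 2 members at 24 h were Myb (-0.66 ± 0.19, unadjusted p = 0.0016, adjusted p = 0.15) and Foxo1 (-0.36 ± 0.13, unadjusted p = 0.011, adjusted p = 0.27). The 24 h change of Myb was 0.48 in knockout and 1.12 in wild type cells, and among the alternatives run their difference was called only when genes with low counts were kept in the fit (-0.67, adjusted p = 0.0021).

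Cultures with anti-IL-2 were compared with 24 h cultures without it. In wild type, 3 of 10 members were called, where 4.4% of genes were called (1.8% higher, 2.6% lower): Lef1 and Satb1 lower, Bach2 higher. In knockout cells, 3 of 10 were called, where 5.27% were called (2.37% higher, 2.9% lower): Lef1 and Satb1 lower, Myb higher. All libraries with anti-IL-2 are of set D and the cultures without it are of sets B and C, which differ from each other in several members. Values of the called members are therefore also given against set B alone and set C alone, comparisons added after the data were seen.

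Lef1 was at 161, 157, 130 and 151 CPM with anti-IL-2 in wild type, against 678, 596 and 621 CPM in set C and 204 and 169 CPM in set B without it. All libraries with the antibody lay below all without it, but set B lay close to them. The difference was -1.61 ± 0.37 (3.05-fold lower, adjusted p = 0.034). It was -2.11 ± 0.09 (adjusted p = 6.4e-09) against set C and -0.31 ± 0.09 (adjusted p = 0.031) against set B. In knockout cells the values were 155, 187, 130 and 137 CPM with the antibody, against 379, 515, 499, 158 and 254 CPM, with overlap. The difference there was -1.25 ± 0.28 (adjusted p = 0.021), -1.63 ± 0.14 (adjusted p = 3.3e-05) against set C and -0.44 ± 0.18 (adjusted p = 0.21) against set B.

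Satb1 was at 290, 258, 250 and 275 CPM in wild type with anti-IL-2 and at 557, 553, 500, 343 and 293 CPM without it, and the groups did not overlap. The difference was -0.75 ± 0.18 (adjusted p = 0.04) over both sets, -1.03 (adjusted p = 4.2e-07) against set C and -0.24 (adjusted p = 0.053) against set B. In knockout cells Satb1 stood at 246, 272, 219 and 282 CPM with the antibody and 349, 543, 461, 282 and 330 CPM without it. The knockout difference was -0.63 ± 0.17 (adjusted p = 0.049), and -0.84 and -0.26 (adjusted p = 0.2) against sets C and B.

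Bach2 was at 413, 380, 381 and 352 CPM in wild type with anti-IL-2, above the 244 to 351 CPM without it. The difference was 0.50 ± 0.12 (adjusted p = 0.035), 0.63 (adjusted p = 1.6e-05) against set B and 0.39 (adjusted p = 0.014) against set C. In knockout cells it was 0.40 ± 0.17 (adjusted p = 0.19), 0.79 (adjusted p = 0.00073) against set B and 0.18 (adjusted p = 0.42) against set C.

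Myb with anti-IL-2 in knockout cells, at 89.0, 81.2, 110 and 93.8 CPM, lay above every knockout library without it, 53.7, 57.5, 58.8, 49.1 and 58.4 CPM. It was higher by 0.75 ± 0.11 (adjusted p = 0.002), and against set B (0.80, adjusted p = 0.0039) and set C (0.71, adjusted p = 0.0026) alike. In wild type the change was 0.12 ± 0.17 (adjusted p = 0.75), 0.58 (adjusted p = 0.00019) against set B and -0.15 (adjusted p = 0.2) against set C. The difference between genotypes in this change, 0.63 ± 0.20, had an unadjusted p of 0.005 and an adjusted p of 1. Bcl6 showed 1.44 (adjusted p = 8.3e-06) against set B and 0.08 (adjusted p = 0.72) against set C in wild type, and Tcf7 0.00 (adjusted p = 0.98) and -1.11 (adjusted p = 1.7e-07). Over both sets, edgeR called neither in wild type, at 0.50 ± 0.29 (adjusted p = 0.36) for Bcl6 and -0.75 ± 0.24 (adjusted p = 0.093) for Tcf7. DESeq2 called Tcf7 (-0.76, adjusted p = 0.015), and edgeR did so without wild type replicate 4 (adjusted p = 0.022) or 5 (adjusted p = 0.016).

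**Figure D4:**
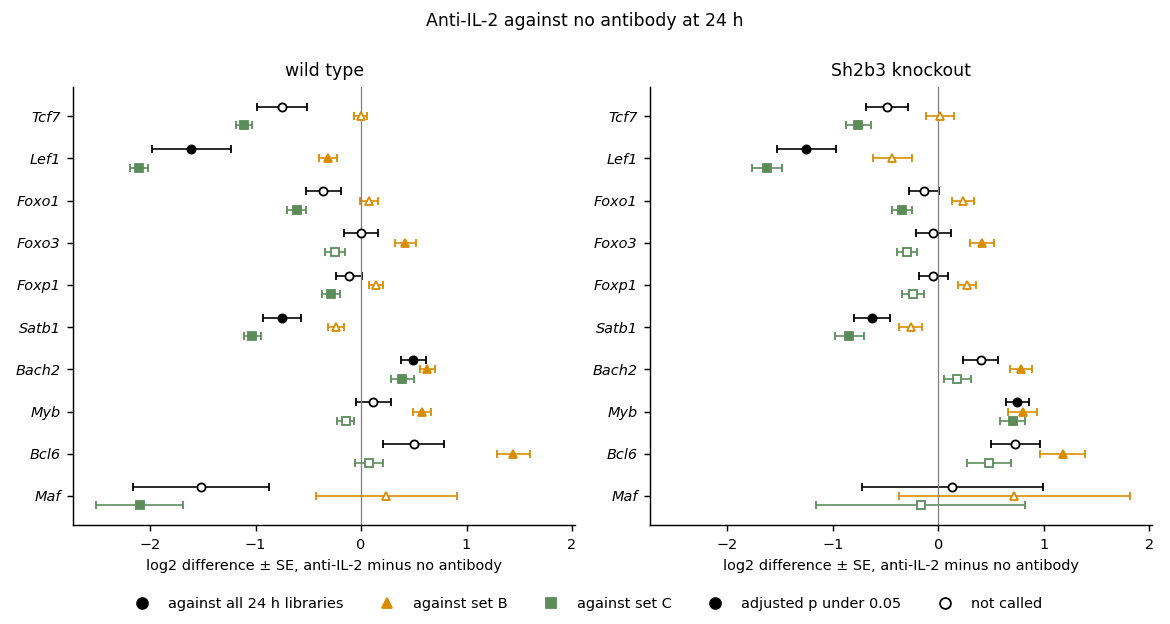
Log2 difference of cultures with anti-IL-2 against cultures without it at 24 h (x axis, ± SE) for each gene (y axis), in 1 panel per genotype, against all 24 h libraries and against those of set B and of set C alone (filled where the adjusted p is under 0.05). In wild type Lef1 (-2.11), Maf (-2.10) and Tcf7 (-1.11) lie furthest below 0 against set C and Bcl6 (1.44) furthest above 0 against set B, and Myb in knockout cells is at a like value against both.

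Leaving out 1 library at a time gave between 0 and 5 called members in wild type and between 1 and 4 in knockout cells, beside 3 in each. In wild type, leaving out 1 of the 9 libraries ended the call of Lef1 in 7 cases (adjusted p up to 0.12), of Satb1 in 7 (up to 0.14) and of Bach2 in 6 (up to 0.12). In knockout cells it ended the call of Satb1 in 8 of 9 cases (up to 0.15) and of Lef1 in 5 (up to 0.085). Satb1 in knockout cells was also not called with DESeq2 size factors (adjusted p = 0.054). The knockout call of Myb held in all 9. Genes of the gamma delta T cell list also differed with the antibody. Of the 7 tested, 4 were called lower in wild type (background 2.6% lower), among them Trdc (221 and 114 CPM) and Tcrg-C4 (23.2 and 3.98 CPM). These values are over both sets, and those against set B or set C alone are not given. The part of these genes in the member differences was not tested.

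Genes that FOXO factors control or that mark quiescence, from a list of 20, moved in both directions early and mostly down later. In wild type, 9 were called higher and 9 lower at 2 h (median 0.02, beside -0.06 over all genes), where 63.6% of all genes were called. At 24 h, 4 were called higher and 13 lower (median -0.70, beside -0.05), where 29.2% of all genes were called higher and 30.1% lower. Bcl2l11, which encodes the death protein BIM, rose by 3.08 ± 0.07 at 2 h (78.8 to 641 CPM, adjusted p = 9.6e-25). At 24 h Txnip, an inhibitor of thioredoxin, fell by 1.56 ± 0.12 (849 to 291 CPM, adjusted p = 1.5e-10). With anti-IL-2 in wild type, 8 of 20 were called lower and none higher (median -0.80, beside 0.01). Over all genes 1.8% were called higher and 2.6% lower there. Among the 8 were Klf2 (a regulator of trafficking genes, -1.94 ± 0.39, 425 and 112 CPM, adjusted p = 0.019) and Btg1 (-0.75 ± 0.14, adjusted p = 0.012). In knockout cells it was 4 of 20 (background 5.27%, 2.37% higher and 2.9% lower, median -0.65). For this list the anti-IL-2 values are over both sets, and those against set B or set C alone are not given. The antibody and the library set cannot be told apart in them. Between genotypes edgeR called 0 of the 20 in each of the 5 groups. DESeq2 called 1 at 2 h and 0 elsewhere. Those with an unadjusted p under 0.05 numbered 1, 8, 0, 1 and 2 at 0, 2, 6 and 24 h and with anti-IL-2. Among all genes tested, 1337 of 12802, 1623 of 12372, 743 of 13082, 1512 of 12906 and 1274 of 13441 had one.

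Of 16 cofactors and targets of TCF-1 and LEF-1, 15 were tested in wild type at 24 h against 0 h, where 5 were called higher and 6 lower. Over all genes 59.3% were called there (29.2% higher, 30.1% lower). Xcl1, a chemokine gene, rose from 0.603 to 367 CPM (adjusted p = 4.2e-11), and Tle3, a corepressor, fell from 435 to 231 CPM (-0.90 ± 0.10, adjusted p = 5.1e-08). Between genotypes, Id3, an inhibitor of E proteins, was lower in knockout cells at 24 h (107 and 64.8 CPM, -0.73 ± 0.12, adjusted p = 0.019) and with anti-IL-2 (101 and 76.5 CPM, adjusted p = 0.028). Of 12 effector regulators, Id2 was higher in knockout cells at 0 h (46.0 and 74.6 CPM, 0.68 ± 0.14, adjusted p = 0.035), at 24 h (31.2 and 64.2 CPM, 1.01 ± 0.13, adjusted p = 0.0024) and with anti-IL-2 (17.1 and 29.6 CPM, adjusted p = 0.02). Tbx21, which encodes T-bet, was higher at 24 h (39.5 and 79.3 CPM, 1.18 ± 0.21, adjusted p = 0.024). Id3, Id2 and Tbx21 are named because they were called, and the other genes of these lists are not reported between genotypes. Over all genes 0.328% were called higher at 0 h, 0.225% higher and 0.147% lower at 24 h, and 0.201% higher and 0.149% lower with anti-IL-2. Values within library sets are not given for these genes.

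Relatives of the members within their families, 18 in all, moved in both directions. In wild type at 24 h, 13 were tested, of which 6 were called higher and 2 lower (median 0.51). Over all genes 59.3% were called there (29.2% higher, 30.1% lower). Mafg rose from 19.3 to 53.9 CPM (1.45 ± 0.10, adjusted p = 8.8e-11) and Mybl2, a cell cycle regulator of the MYB family, from 3.41 to 52.8 CPM (3.90 ± 0.27, adjusted p = 2.1e-10), while Foxo4 fell from 61.3 to 30.4 CPM (-0.93 ± 0.10, adjusted p = 6.9e-08). Between genotypes edgeR and DESeq2 called 0 relatives in each of the 5 groups, and those with an unadjusted p under 0.05 numbered 1, 1, 0, 1 and 0. The counts over all genes are those given above for the FOXO list.

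The genes most like each member were found by Pearson correlation of log2 CPM over all 60 libraries, which share their depth and their time course, among 9321 genes. Tcf7 was most like Scml4 (r = 0.98) and Lef1 most like Ets1 (r = 0.97). Myb was closest to Hspa4l (r = 0.93), and Bach2 to Bcl2l11 (r = 0.96), which was also second for Myb (r = 0.93). Foxo1 was closest to Ppp2r5a (r = 0.97), Satb1 to Map4k4 (r = 0.97), Bcl6 to Tgif1 (r = 0.94) and Foxo3 to Zfp236 (r = 0.92). Foxp1 and Maf had less close partners, Mmd (r = 0.81) and Pttg1ip (r = 0.83). Annotated genes overlap exons of 8 members in GENCODE M21, and of those in the count table none held more than 0.742% of the reads of the member it overlaps (Bach2os, antisense to Bach2). Whether counting used the strand is not given in the sources used here, so antisense reads cannot be told apart.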

How the data were processed

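The 60 libraries are polyA mRNA-seq, and the authors deposited 1 table of raw read counts per gene. Per the submitters' processing notes, reads were handled with FastQC 0.119.9, STAR 2.7.9a, SAMtools, Picard 2.42.2 and featureCounts 2.0.1 (Subread) on GRCm39. The annotation release and strand setting are not given in the sources used here. Gene names came from the GENCODE M21 table, which named 52081 of 55414 identifiers and 99.6% of counts, and promoter windows from RefSeq.

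Counts were tested with edgeR 4.0.16 (R 4.3.3; TMM scaling, filterByExpr with a minimum count of 10, robust quasi-likelihood test, Benjamini-Hochberg adjustment over all genes, threshold 0.05), fitted on the libraries of each comparison. Genotype comparisons at 0 and 24 h without anti-IL-2, comparisons with 0 h or of 24 with 6 h, and the interactions included a library set term where the design allowed it. DESeq2 1.42.0, its size factors, no filter, no set term, single sets, a replicate block and leaving out each library of the groups of 4 or 5 were alternatives. The 0 h libraries were not each left out, so the call at 0 h has no such check. Only the 1 doubted library, which has the highest knockout value of Maf, was taken out. Each fit was tested on simulated counts. CPM levels were scaled over all 60 libraries, and totals of 13987029 to 35476519 counts set the counting precision.

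The members and gene lists were chosen with earlier results of these data known. Replicate numbers follow accession order and pair nothing. Numbers in the library names, 10 or 20 apart, were checked as a pairing: all 5 pairs of knockout libraries at 2 and 6 h deviated together (r from 0.22 to 0.75). The main fit of 6 h against 2 h in knockout cells did not include this pairing. It entered only as the replicate block among the alternatives. In the other comparisons not every pair reached 0.1. The named genes are the 10 members, up to 4 called genes per list and comparison, and the closest gene by correlation. Results for some genes of the lists are not reported here.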

Additional observations from a re-analysis of the deposited data

Results flagged for a closer look

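Of 80 pairs of a member and a group of 4 or 5 libraries, 7 had 1 library far from the others by Dixon's criterion, and chance marks about 1 in 20 groups. Myb in wild type at 2 h was at 267.1 CPM in replicate 2 (others 190.7 to 210.1 CPM). Bach2 was at 351.0 CPM in replicate 2 of wild type at 24 h (others 243.7 to 260.0 CPM) and at 277.5 CPM in replicate 3 of knockout at 6 h (others 333.4 to 350.0 CPM). Satb1 was also low in that knockout library, at 653.9 CPM (others 860.6 to 934.3 CPM). Foxo3 at 6 h was at 140.7 CPM in wild type replicate 4 (others 128.3 to 129.8 CPM) and at 135.8 CPM in knockout replicate 1 (others 117.3 to 122.4 CPM). Maf was at 0.8595 CPM in wild type replicate 4 with anti-IL-2 (others 1.563 to 1.693 CPM).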

How the results depend on the processing

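Of 2820 values recomputed under an alternative, 2680 stayed on their side of the threshold (uncalled values near 0 could change sign), 83 lost a call and 55 gained one. In 2 cases the sign changed where 1 of both values was called, Foxo3 with anti-IL-2 in knockout cells against set B alone (0.42) and Bcl6 at 24 h against 0 h in wild type within set B (-0.11). Between genotypes at 0 h, 1 member was called, and 0 with no set term or within set A, B or C alone. At 24 h, 1 was called, against 2 with DESeq2, 0 with no set term, 0 within set B, and 1 to 2 leaving out 1 library. With anti-IL-2 in wild type, 3 were called, against 1 with no filter on low counts, 5 against set B, 7 against set C, and 0 to 5 leaving out 1 library. In knockout cells, 3 were called, against 5 against set C and 1 to 4 leaving out 1 library. Against set B, Lef1 and Satb1 were not called in knockout cells, while Bach2, Foxo3 and Bcl6 were. With no filter on low counts, Lef1 (adjusted p = 0.15) and Satb1 (adjusted p = 0.095) were not called there, and Bcl6 was (adjusted p = 0.037). For the interaction from 0 to 24 h, 0 were called, and 1 (Myb) with no filter. The cause was not tested for any of these.

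The labels give no replicate numbers. Libraries with numbers 10 or 20 apart correlated between 0.22 and 0.75 for knockout at 2 and 6 h. Elsewhere r ran from -0.13 to 0.60 and they share only a number, though all 5 wild type pairs at 0 and 2 h correlated best with their own number. With that replicate block, Lef1 (-0.75, adjusted p = 0.07), Foxo3 (-0.36, adjusted p = 0.065) and Bcl6 (0.46, adjusted p = 0.13) were not called in wild type at 24 h against 0 h. Lef1 was then called at 2 h against 0 h in wild type (0.16, adjusted p = 0.033) and knockout cells (0.19, adjusted p = 0.047), and at 6 h against 2 h in knockout cells (-0.34, adjusted p = 0.0022), the 1 change of call in the paired libraries. Low counts limit Maf, which had 0 reads in 1 library.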
